A study of Mus musculus with 2 samples.

Results

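Il12b-positive immature cDC1 cells were those cells of a mouse lung cDC1 library that carried at least 2 transcripts of Il12b while staying under set limits for maturation and cycling genes. They numbered 175 of 1826 kept cells (9.58%, exact binomial interval 8.27 to 11.0), of 2939 barcodes deposited for that library and 5984 in the series. A kept cell had at least 500 genes and 1000 unique molecular identifiers (UMIs, each marking 1 captured transcript), and at most 10% mitochondrial UMIs. It also had at least 1 UMI of Xcr1 plus Clec9a, under 3 of Fscn1, under 2 of Ccr7, and under 4 in sum of Mki67, Top2a, Birc5, Cdk1, Ccna2 and Ube2c. Kept cells with no Il12b UMI, 1557 in number, served as the comparison, and 94 kept cells with exactly 1 UMI lay between. The cut on Il12b takes a range of a measured value and does not define a cell type.

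Droplet single-cell RNA sequencing was applied to lungs from C57BL/6 mice, 8 to 10 weeks old, and the study's title places the cells in steady state. Lungs were digested with dispase, and cells sorted on XCR1 (cDC1) or on CD172a (cDC2) gave 1 library each. No treatment is named, and the labels state neither the number and sex of the mice nor any pooling. With 1 library per sort, and both sets of cells taken from the same library, no test across samples could be made.

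Conventional type 1 dendritic cells take up dying cells, present their antigens to CD8 T cells and are a known source of interleukin-12. Il12b encodes p40, the subunit shared by interleukin-12, where it pairs with the Il12a product p35, and by interleukin-23, where it pairs with the Il23a product p19. Transcription of Il12b is known to depend on NF-kB factors, which are held in the cytoplasm by inhibitors such as the Nfkbia product until a receptor signal releases them, and which then induce their own inhibitors, survival genes, adhesion molecules and cytokines. Full maturation of a dendritic cell adds Fscn1 and Ccr7, the receptor for migration to lymph nodes.

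The promoters below are shown because the results turn on Il12b and on NF-kB-regulated genes, and they let a reader see where NF-kB-type letters lie. Each runs from 250 bases before to 50 bases after a RefSeq transcript start (GRCm38.p6) and is written 5′ to 3′ on the gene's own strand. Capitals mark a match, on either strand, to the NF-kB consensus GGGRNNYYCC or to the short site GGGAATT, and matches of both kinds can overlap. Here R is A or G, Y is C or T, and N is any base. The windows are chr11:44399813-44400112 (plus strand) for Il12b, chr9:21015690-21015989 (plus) for Icam1, chr12:55492598-55492897 (minus) for Nfkbia, chr6:65590148-65590447 (plus) for Tnip3 and chr17:55952373-55952672 (plus) for Ebi3.
Il12b: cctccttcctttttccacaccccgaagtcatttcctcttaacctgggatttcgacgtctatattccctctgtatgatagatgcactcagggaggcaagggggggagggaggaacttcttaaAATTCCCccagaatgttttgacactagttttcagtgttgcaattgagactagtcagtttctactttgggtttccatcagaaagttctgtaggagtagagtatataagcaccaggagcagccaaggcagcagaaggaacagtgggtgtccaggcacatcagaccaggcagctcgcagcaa
Icam1: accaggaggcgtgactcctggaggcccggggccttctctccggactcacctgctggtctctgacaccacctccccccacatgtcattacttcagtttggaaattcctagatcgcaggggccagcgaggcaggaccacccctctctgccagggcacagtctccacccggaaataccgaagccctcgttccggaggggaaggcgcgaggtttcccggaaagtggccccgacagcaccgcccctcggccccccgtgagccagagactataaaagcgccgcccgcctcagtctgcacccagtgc
Nfkbia: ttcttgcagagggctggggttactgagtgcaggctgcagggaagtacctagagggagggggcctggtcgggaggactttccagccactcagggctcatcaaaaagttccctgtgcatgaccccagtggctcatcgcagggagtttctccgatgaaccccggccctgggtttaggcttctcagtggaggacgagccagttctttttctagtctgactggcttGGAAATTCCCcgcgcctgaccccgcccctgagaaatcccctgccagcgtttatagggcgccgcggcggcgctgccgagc
Tnip3: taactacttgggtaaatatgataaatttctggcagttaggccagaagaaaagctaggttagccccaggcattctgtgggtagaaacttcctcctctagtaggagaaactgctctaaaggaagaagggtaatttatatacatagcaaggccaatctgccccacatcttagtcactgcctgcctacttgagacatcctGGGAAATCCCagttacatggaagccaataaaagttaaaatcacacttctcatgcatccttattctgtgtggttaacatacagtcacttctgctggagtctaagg
Ebi3: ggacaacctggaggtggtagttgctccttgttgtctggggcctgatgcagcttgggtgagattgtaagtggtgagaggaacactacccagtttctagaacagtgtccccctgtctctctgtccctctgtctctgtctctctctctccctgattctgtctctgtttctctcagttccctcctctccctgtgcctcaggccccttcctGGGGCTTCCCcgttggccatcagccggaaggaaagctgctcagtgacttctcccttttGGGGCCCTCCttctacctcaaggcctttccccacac

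The Il12b window held 1 short site, whose first base lay 129 bases before the start, and no full consensus. The Nfkbia window held 1 consensus match that began 29 bases before the start and overlapped a short site, Tnip3 held 1 that began 54 bases before it, and Ebi3 held 2. The Icam1 window held neither, which says only that these letters are not in it. Among windows looked at but not shown, that of Ccl22 held neither, and those of Nfkb2 and Il1b held matches. Tnfsf9, Arl5c and Nfkbiz had no promoter entry. Of all 32851 promoters of the table, each counted on its own, 8.46% held the consensus and 3.51% the short site. The shares that follow are per gene and so not on the same basis. Among genes at 20 or more UMIs per 1000000 UMIs (counts per 1000000, CPM) in the comparison that follows, 435 of 3314 with a promoter entry (13.1%) held the consensus. The share was 40 of 160 (25%) for genes at least 1.5-fold higher in Il12b-positive cells and 11 of 108 (10.2%) for genes at least 1.5-fold lower, where a gene with several starts counted once if any start matched. These shares are descriptions of letters, without a test, and a match is not a site shown to be bound.

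Il12b itself (chromosome 11, 44400063 to 44414033, GRCm38) chose the cells, so its level is given as a description only. The 175 cells held 2 to 72 Il12b UMIs with a median of 9, and 2291 in all. Of these cells, 28 had 2 UMIs, 18 had 3 and 84 (48.0%) had 10 or more, so the cells near the cut were a minority and there was no gap in the distribution at 2. The positive cells held 30.3% of all 7554 Il12b UMIs in the library's cells passing the quality limits. Cells that the rule set aside as more mature carried Il12b more often: 34 of 40 with Fscn1 at 3 or more (85.0%) and 53 of 144 with Ccr7 at 2 or more and low Fscn1 (36.8%) had at least 2 UMIs. Among 362 cells with cycling genes at 4 or more the share was 21.8%. Those cells had no limit on Fscn1 or Ccr7. Their median depth was 18620 UMIs, against 12465 in the zero cells, so the shares are not at equal depth.

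**Figure D1:**
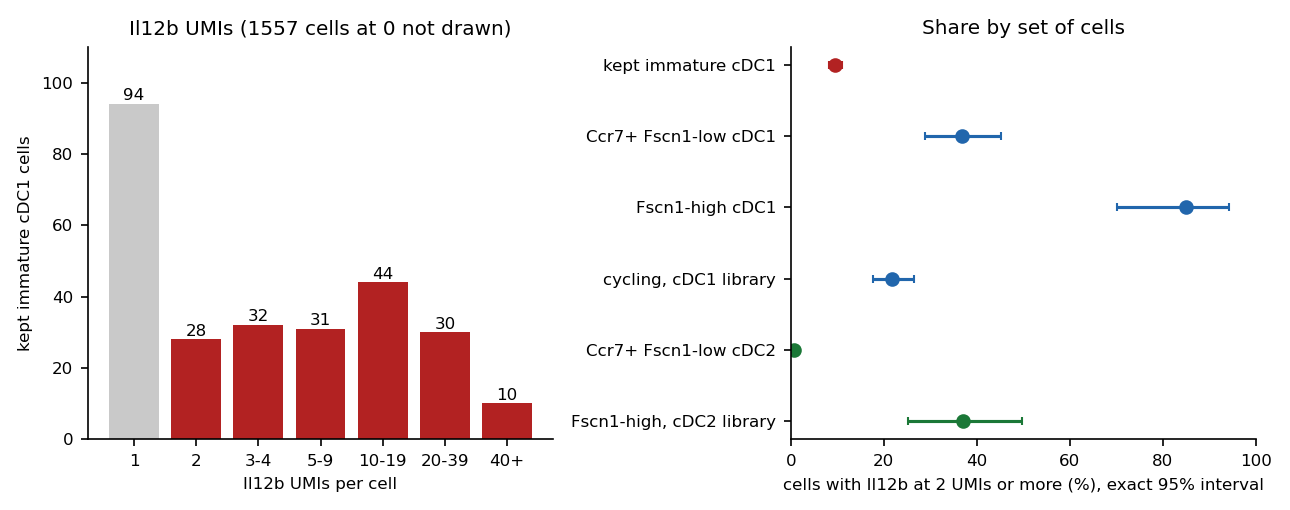
Left, number of kept immature cDC1 cells (y axis) by Il12b UMIs per cell (x axis), with 94 cells at 1 UMI in grey and the 175 positive cells in red. Right, share of cells with at least 2 Il12b UMIs (x axis, %, exact 95% binomial intervals) in 6 sets of cells, where the kept immature cells stand at 9.58% and the Fscn1-high cDC1 cells at 85.0%.

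Free RNA in droplets can give a UMI to a cell that does not express a gene, and its share in the Il12b counts could not be bounded closely. In the cDC2 library, sorted separately, 4 of 1189 immature cells had any Il12b UMI and 2 had at least 2, at a median of 11563 UMIs per cell in those at 0. That library held 14.1 CPM of Il12b over all its cells, against 215 in the cDC1 library, so it does not bound the background of the latter. No Il12b UMI was seen in 21 barcodes of the cDC1 library with lymphocyte, neutrophil, fibroblast or endothelial markers, which at a median of 3367 UMIs allows a share of cells with a UMI of up to 14.3% and so is no closer bound. The positive and the zero cells had similar depth, with medians of 12813 and 12465 UMIs, 2571 genes in each, and 3.99% and 3.92% mitochondrial UMIs. Of the barcodes passing limits, 5 occurred in both libraries, and 1 of them was a positive cell.

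In the marker check, cDC1 markers were at like levels in both sets. This was partly fixed beforehand, since the rule required Xcr1 or Clec9a in every kept cell and both are among the markers summed. The summed level of 12 cDC1 markers was 4597 CPM (UMIs of the genes over all UMIs of the set of cells) in positive cells and 4723 in zero cells, with 1 of 9 measured markers at least 1.5-fold higher and 1 lower, and Xcr1, a rule gene, was detected in 97.7% and 90.9% of them. Irf8, the factor that sets cDC1 fate, stood at 941 against 1151 CPM. For 10 cDC2 markers the sums were 485 and 404 CPM (ratio 1.20, 1.13 to 1.28, cell medians 375 and 283), and 0 of the 4 measured ones passed 1.5-fold. Sirpa, Cd209d and Clec4a3 had no UMI in any positive cell. In all zero cells they had only 12, 1 and 2 UMIs, so these zeros say little. The mature list of 12 genes, of which 2 were measured and both passed 1.5-fold upwards, summed to 2646 against 655 CPM, nearly all of it Ccl22. On this list Apol7c and H2-M2 had no UMI in positive cells, and only 4 and 2 in zero cells. That list includes Fscn1 and Ccr7, on which the rule set upper limits. Sums for macrophage (19.3 and 21.3 CPM), T cell (0.857 and 1.11 CPM) and B cell markers (58.3 and 58.6 CPM) were alike. Of 10 macrophage markers, C1qa, Mrc1, Fabp4 and Marco were at 0 in positive cells, while C1qb and C1qc were not. So were 4 of 6 T cell and 3 of 6 B cell markers at 0, Cd3e and Ms4a1 among them. Zero cells had only 4 UMIs each of C1qa and Fabp4 and 1 of Cd3e, so such zeros say little. The 9 monocyte markers summed to 722 against 599 CPM, with Fn1, F13a1, Vcan and Ace at 0. None of the measured genes on the pDC, B cell, monocyte and epithelial lists passed 1.5-fold. The part of these differences in the results below was not tested.

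Across the transcriptome, most measured genes were within 1.5-fold between the positive and the zero cells. The largest ratios among named genes were those of Arl5c, Ccl22, Tnfsf9, Cd40, Ccl17 and Ccnd2. Of 4141 genes with a mean of both sets of at least 20 CPM, 195 (4.71%) were at least 1.5-fold higher and 135 (3.26%) at least 1.5-fold lower in the positive cells. At 2-fold the numbers were 72 (1.74%) and 17 (0.411%). The median gene stood at a log2 ratio of -0.07. Counts of called genes on the lists below stand beside these shares of all genes. Calls are by this rule of size, and each ratio carries an exact conditional 95% interval that covers counting error only and not the spread between mice. Because positive cells were chosen on 1 gene, the ratios describe what went with Il12b in these cells.

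**Figure D2:**
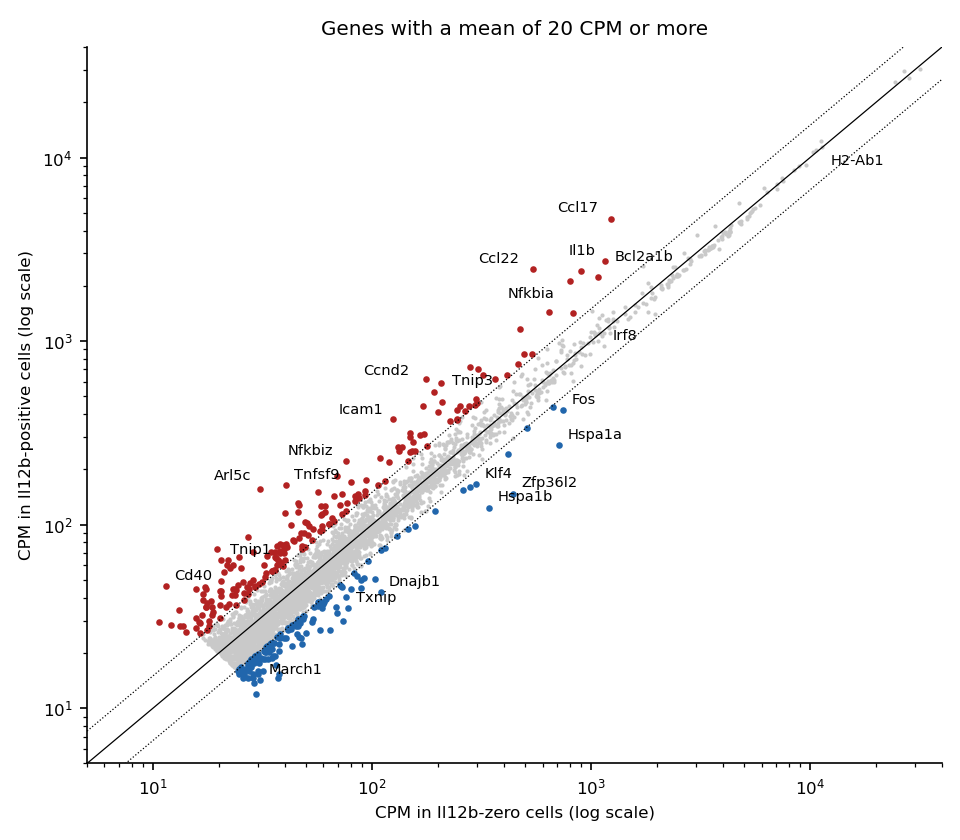
Level of each of 4141 genes in Il12b-zero cells (x axis, CPM, log scale) and in the 175 positive cells (y axis, CPM, log scale). The solid line is equality and the dotted lines 1.5-fold, with 195 genes above in red and 135 below in blue. Arl5c, Ccl22, Tnfsf9, Cd40 and Ccl17 are among those far above.

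The 3 genes given as companions of Il12b were all higher in positive cells, although they were named with these values known. Tnfsf9 (chromosome 17, 57105325 to 57107757) encodes the ligand of the T-cell co-stimulatory receptor Tnfrsf9. Its level ranged over positive cells from 0 to 2134 CPM with a median of 77.5, and over zero cells from 0 to 1631 with a median of 0. The ranges overlapped: 70 of 175 positive cells had no Tnfsf9 UMI, and 67 (38.3%) lay above the 90th percentile of zero cells. Summed over cells it stood at 165 against 40.5 CPM, a ratio of 4.07 (3.59 to 4.60).

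Icam1 (chromosome 9, 21015985 to 21028817) encodes the adhesion molecule that binds LFA-1 on T cells and steadies their contact with a dendritic cell. It ranged from 0 to 2398 CPM with a median of 289 in positive cells, and from 0 to 4035 with a median of 53.7 in zero cells. The summed levels were 378 and 124 CPM, a ratio of 3.04 (2.81 to 3.29). The highest single cell was among the zero cells, while the middle of the positive cells lay above that of the zero cells.

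Nfkbia (chromosome 12, 55489410 to 55492647) encodes the inhibitor IkB-alpha, itself an NF-kB target. Positive cells ranged from 0 to 6590 CPM with a median of 1852, and zero cells from 0 to 14108 with a median of 313. The summed ratio was 2.64 (2.56 to 2.72), at 2114 against 801 CPM, and 2 positive cells had no UMI. After every cell was thinned to 5000 UMIs, which left out 2 positive and 28 zero cells, 31.8% of positive cells held all 3 transcripts against 7.46% of zero cells (intervals 24.9 to 39.3 and 6.19 to 8.89). None of the 3 was detected in 1.16% and 24.9%, respectively.

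Most inhibitors and feedback genes of NF-kB were higher in positive cells. Of 15 measured on a list of 16, 10 were at least 1.5-fold higher and 0 lower, beside 4.71% and 3.26% of all genes measured. The list median log2 ratio was 0.94 against -0.07 over all genes. Besides Nfkbia these included Tnip1 (ratio 3.14, 64.3 against 20.5 CPM), which restrains the pathway together with A20. Nfkbiz, an atypical IkB that joins NF-kB in the nucleus, stood at 222 against 76.3 CPM (2.92, 2.63 to 3.22). Tnip3, a relative of Tnip1, stood at 590 against 207 CPM (2.85, 2.68 to 3.04), with a cell median of 534 against 79.9 CPM. Tnfaip3, which encodes A20, had a ratio of 2.03. Cyld, a deubiquitinase of the same pathway, had 66.9 against 79.0 CPM and was within the limit.

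The transcription factors and adaptors of the pathway were less uniform. Of 11 measured on a list of 16, 4 were at least 1.5-fold higher and 0 lower, beside 4.71% and 3.26% of all genes measured. The list median log2 ratio was 0.43. Traf1, an adaptor of TNF receptors and a target of NF-kB, was at 466 against 209 CPM (2.23, 2.08 to 2.38). Nfkb1, the p105 and p50 subunit gene, was at 652 against 320 CPM (2.04). Rel, the c-Rel subunit gene that is closely tied to Il12b in the literature on macrophages and dendritic cells, was at 623 against 363 CPM (1.72, 1.62 to 1.82). Nfkb2 stood just past the limit at 1.51, and below it under 6 of 12 other settings (1.42 to 1.81). Rela (1.35) and Relb (1.41) did not reach it, and neither did the kinase genes Ikbkb (0.986) and Chuk (0.765).

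On a list of 25 survival and stress genes, mostly known targets of NF-kB, 16 of 22 measured were higher and 0 lower. This stood beside 4.71% and 3.26% of all genes measured. The list median log2 ratio was 1.0. Cflar, which blocks caspase-8, had a ratio of 2.89 (2.51 to 3.32). Marcksl1, a membrane-to-actin linker, stood at 529 against 192 CPM (2.75), Tnfaip2 at 184 against 69.0 (2.67) and the stress gene Gadd45b at 443 against 171 (2.60). The anti-apoptotic Bcl2a1 genes were higher too: Bcl2a1b at 2726 against 1152 CPM (2.37), Bcl2a1d at 2244 against 1076 (2.08) and Bcl2a1a at 1169 against 475 (2.46). These are near-identical copies, so the split of reads among them is uncertain. Mcl1, another anti-apoptotic gene, had 986 against 890 CPM (1.11). Not every higher gene of the list favours survival: Bcl2l11, which promotes apoptosis, had a ratio of 1.99.

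**Figure D3:**
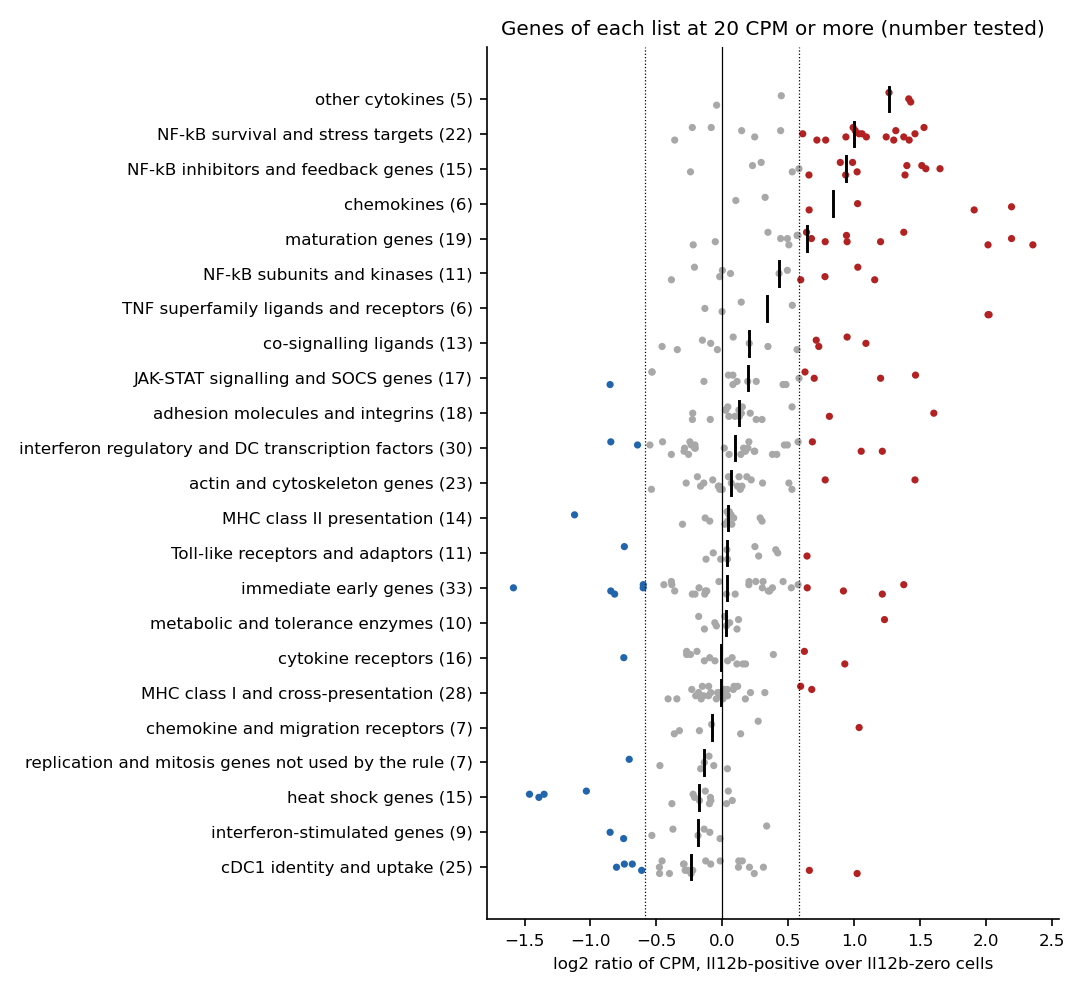
Log2 ratio of CPM in positive over zero cells (x axis) for each measured gene of 23 lists (y axis, number of genes measured in brackets). Red points are at least 1.5-fold higher, blue at least 1.5-fold lower, the black tick is the list median and dotted lines mark 1.5-fold; other cytokines and the NF-kB target lists have the highest medians and cDC1 identity the lowest.

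The partners of p40 were scarce. Il12a, needed for interleukin-12, had 0 UMIs in both positive and zero cells, where 3 UMIs would have been 1.29 and 0.152 CPM. Il23a had 12 UMIs in positive and 51 in zero cells (5.14 and 2.58 CPM), and Il27, the p28 subunit, had 3 and 5 (1.29 and 0.253 CPM). Ebi3, which encodes a p40-like partner of interleukin-27 and interleukin-35, was the 1 measured family member besides Il12b and had a ratio of 2.34 (2.01 to 2.70) at 99.9 against 42.8 CPM.

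Of 5 other cytokines measured on a list of 21, 3 were at least 1.5-fold higher and 0 lower. Over all genes measured the shares were 4.71% and 3.26%. Il1b, the interleukin-1 beta precursor, ranged from 0 to 8388 CPM with a median of 2182 in positive cells, and from 0 to 8689 with a median of 319 in zero cells. Its summed level was 2396 against 899 CPM (2.67, 2.59 to 2.75), and 9 positive cells had none. Il1a (66.4 against 24.7 CPM, 2.69) and Tnf (49.3 against 20.5 CPM, 2.40) were higher too, with no UMI in 101 and 122 positive cells. Il6 (4 and 27 UMIs), Il10 (0 and 1 UMI) and Ifnb1 (0 and 0) were at or near none.

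Both chemokines for CCR4, a receptor of regulatory and helper T cells, were among the 15 genes of largest ratio. Ccl22 ranged from 0 to 13092 CPM with a median of 1930 in positive cells, and from 0 to 10754 with a median of 95.6 in zero cells. It was detected in all but 5 positive cells, and 94 (53.7%) lay above the 90th percentile of zero cells. Ccl22 summed to 2473 against 541 CPM (4.58, 4.43 to 4.72). Ccl17, the other CCR4 ligand, ranged from 0 to 19871 CPM (median 4148) against 0 to 32934 (median 168). It summed to 4642 against 1235 CPM (3.76, 3.67 to 3.85).

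Of 6 chemokines measured on a list of 21, 4 were higher and 0 lower, the others being Ccl3 (2.04, with no UMI in 156 positive cells) and Cxcl16 (1.58, and 1.38 with cells of 1 Il12b UMI counted as positive). Cxcl10, an interferon-driven chemokine, had 2 and 137 UMIs, and Cxcl9 had 34 and 282. The chemokine receptors measured numbered 7, of which 1, the decoy-like Ccrl2, was higher (2.05). Both lists stand beside 4.71% higher and 3.26% lower of all genes measured.

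Among ligands that act on T cells, the difference was selective. Of 6 TNF superfamily genes measured, 2 were higher: Tnfsf9 and Cd40, the receptor through which helper T cells license dendritic cells (46.3 against 11.5 CPM, 4.04, 3.18 to 5.11). Of 13 co-signalling ligands measured, 4 were higher and 0 lower: Icosl (2.13), Cd80 (1.93), Slamf9 (1.66) and Pvr (1.64). Cd86, the partner of Cd80, was at 564 against 381 CPM and just under the limit at 1.48, passing it under 3 other settings (1.34 to 1.53). Pvr was just short of the limit with cells of 1 Il12b UMI counted as positive. Cd274, which encodes PD-L1, was below the measured range, with 36 UMIs in positive and 129 in zero cells. Zero cells had 6.54 CPM of it. Positive cells had 1.33 CPM at 2 to 4 Il12b UMIs, 32.5 at 5 to 9 and 18.3 at 10 or more. Of 18 adhesion genes, Icam1 and Itgav (1.76) were higher and 16 were within the limit, Itgal and Itgb2 among them. Of all genes measured, 4.71% were higher.

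Antigen presentation genes hardly differed, beside 4.71% higher and 3.26% lower of all genes measured. Of 14 MHC class II genes, 0 were higher and 1 lower: March1, whose product sends class II molecules and CD86 to degradation, at 14.1 against 30.8 CPM (2.17-fold lower, 1.53 to 3.19). H2-Ab1 was at 11466 against 11317 CPM and Cd74 at 25710 against 24448. Of 28 class I and cross-presentation genes, 26 were within 1.5-fold, and the others, H2-Q6 (1.60) and H2-Q7 (1.51), are close copies whose reads may be split, and both lost the call with cells of 1 Il12b UMI counted as positive. Of 19 maturation genes measured on a list of 40, 10 were higher and 0 lower, led by Arl5c and Ccl22. Arl5c, a small GTPase-like gene, had the largest ratio of all named genes, 5.12 (4.48 to 5.84) at 157 against 30.7 CPM, and 53 positive cells lacked it.

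Of 30 transcription factors measured, 3 were higher and 2 lower, beside 4.71% and 3.26% of all genes measured. Nr4a3, an orphan nuclear receptor induced by activation, stood at 706 against 304 CPM (2.32, 2.19 to 2.45), Maff at 78.9 against 38.0 (2.08) and Etv3 at 481 against 299 (1.61). Klf4 was 1.80-fold lower (1.62 to 2.00) at 167 against 300 CPM, and Nfil3, which acts in the origin of cDC1, 1.56-fold lower. Of the JAK-STAT list, 4 of 17 were higher and 1 lower: Stat5a, which transmits GM-CSF signals, at 128 against 46.4 CPM (2.76), Stat4 (2.30), Jak2 (1.62), Stat5b (1.54) and, downwards, Stat2 (1.80-fold). Etv3, Nfil3, Jak2, Stat5b and Stat2 lost the call with cells of 1 Il12b UMI counted as positive.

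Of 16 cytokine receptors measured, 2 were higher and 1 lower, beside 4.71% and 3.26% of all genes measured. Tgfbr1 (1.90) and Il10ra (1.54) were higher, and Ifngr1, the interferon-gamma receptor chain, was 1.68-fold lower (1.51 to 1.87) at 155 against 260 CPM. Among Toll-like receptor genes, 1 of 11 was higher, Cd180 (1.56), and 1 lower, Tlr3, the receptor for double-stranded RNA that marks cDC1 (1.67-fold, 1.34 to 2.12). Of 9 interferon-stimulated genes, 0 were higher and 2 lower, Stat2 and Slfn5 (1.68-fold). Ifngr1, Tlr3 and Slfn5 lost the call with cells of 1 Il12b UMI counted as positive, and Il10ra and Cd180 lost it under 5 and 4 settings.

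The cDC1 identity list had 2 of 25 genes higher and 4 lower, at a median log2 ratio of -0.24. Of all genes measured, 4.71% were higher and 3.26% lower. Ly75, the uptake receptor DEC-205, was higher (2.03, 1.76 to 2.34), as was Ifi205 (1.58). Plet1 was 1.74-fold lower, Tlr3 1.67-fold, Gpr171 1.61-fold and Dnase1l3 1.53-fold, and Plet1, Tlr3, Gpr171, Dnase1l3 and Ifi205 lost the call with cells of 1 Il12b UMI counted as positive. The uptake and lineage genes Wdfy4 (507 against 512 CPM), Cd207 (512 against 470) and Batf3 (76.3 against 64.5) were within the limit.

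Lower genes were led by Zfp36l2, which encodes a protein that destabilises AU-rich messenger RNAs. It ranged from 0 to 1521 CPM with a median of 74.9 in positive cells and from 0 to 3276 with a median of 346 in zero cells. Summed, it was 3.0-fold lower (2.69 to 3.35) at 147 against 442 CPM. Inducible heat shock genes followed, with 4 of 15 lower and 0 higher, beside 3.26% and 4.71% of all genes measured. The 4 were Hspa1b (2.76-fold), Hspa1a (2.62-fold), Dnajb1 (2.55-fold) and Hsph1 (2.04-fold).

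Hspa1a and Hspa1b are near-identical, so their split is uncertain, and their level was concentrated in few cells. Hspa1a had a median of 0 in both sets and reached 16717 CPM in a zero cell and 6270 in a positive one. Among 208 thinned cells with at least 10 Hspa1a UMIs, 3.85% were Il12b-positive (1.67 to 7.44), against 10.6% of 1210 with none. The heat shock and immediate early genes can be induced while tissue is digested, and the part of that in these differences was not tested.

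Of 33 immediate early genes measured, 4 were higher and 5 lower, beside 4.71% and 3.26% of all genes measured. Fos was 1.76-fold lower (422 against 744 CPM), and Jun (1.52-fold) and Egr1 (1.52-fold) were just past the limit. Egr1 lost the call under 9 of 12 other settings and had a ratio of 1.004 with cells of 1 Il12b UMI counted as positive, since in those cells it was 1.65-fold higher (1.4 to 1.94) than in zero cells. Jun lost the call under 5 settings (ratios 0.574 to 0.760). Dusp2, a phosphatase acting on MAP kinases, was at 251 against 133 CPM (1.89) and Gadd45b and Nr4a3 were higher as given above. Other genes among the 15 lowest were Txnip (2.20-fold), Cenpa (2.09-fold), P2ry14 (1.99-fold), Hipk1 (1.91-fold) and Ankrd12 (1.81-fold), of which P2ry14 and Ankrd12 lost the call with cells of 1 Il12b UMI counted as positive. Among the 15 highest and on no list were Ccnd2, a D-type cyclin (618 against 176 CPM, 3.52), Tmem39a (3.16), Col27a1 (2.83) and Swap70 (2.67), which acts on the actin of dendritic cells.

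Most other lists held few differences. Actin and cytoskeleton genes had 2 of 23 higher, Marcksl1 and Basp1 (1.72), with Actb at 12320 against 11207 CPM. Metabolic and tolerance enzymes had 1 of 10 higher, the glucose transporter relative Slc2a6 (2.35), and Gapdh at 699 against 672 CPM. Replication and mitosis genes that the rule did not use had 0 of 7 higher and 1 lower, Mcm6 (1.63-fold), which lost the call under 2 settings. In all, 68 of 327 measured list genes were at least 1.5-fold higher and 19 lower, beside 4.71% and 3.26% of all 4141 genes, on lists chosen with earlier results of these data known.

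Many of these differences were already present at 2 to 4 Il12b UMIs (60 cells). Of the 15 genes of largest ratio, 5 were at least 1.5-fold higher and 0 lower at 10 or more UMIs (84 cells) than at 2 to 4. In cells with 1 UMI against cells with 0, which are the same zero cells as above, 11 of the 15 were at least 1.5-fold higher and 0 lower, where 1.93% of 4247 genes were higher and 0.989% lower. The 15 were picked by their ratios over these same zero cells, so this count is not independent of that choice. Nfkbia stood at 801, 1111, 2032, 2005 and 2209 CPM in cells with 0, 1, 2 to 4, 5 to 9 and 10 or more Il12b UMIs. Icam1 had no such even course, at 124, 255, 387, 248 and 421 CPM. Plet1 was higher in cells with 1 UMI (363 CPM) than in zero cells (280 CPM), although lower in positive cells. Tnfsf9 went from 40.5 through 79.6, 126 and 118 to 207 CPM, and was 1.65-fold higher (1.29 to 2.11) at 10 or more than at 2 to 4. Stat5a (1.68-fold, 1.27 to 2.24) and Tnfaip2 (1.64-fold) also passed 1.5-fold between these steps, and Ccl22 (1.38-fold, 1.29 to 1.47) and Ccl17 (1.38-fold) did not.

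Il1b (1.09-fold), Tnip3 (0.993) and Rel (0.994) were level between those steps. Il1a was the other way round, at 95.4 CPM with 2 to 4 UMIs and 53.2 with 10 or more (ratio 0.557, 0.390 to 0.795). Zfp36l2 was lower at each step but the last, at 442, 357, 207, 111 and 122 CPM. Klf4 was lower at every step, at 300, 240, 215, 172 and 133 CPM. Over all 4025 genes measured, 195 (4.84%) were at least 1.5-fold higher and 231 (5.74%) lower at 10 or more against 2 to 4 UMIs, led upwards by Procr, the protein C receptor (107 against 30.5 CPM, 3.52). In the cells just outside and inside the cut, at 1, 2 and 3 Il12b UMIs (94, 28 and 18 cells), Icam1 was at 255, 347 and 485 CPM and Nfkbia at 1111, 1915 and 2796. Ccl22, at 971, 1924 and 1304 CPM, Ccl17, at 2165, 4431 and 2569, and Il1b, at 1528, 2789 and 1595, were lower at 3 than at 2 UMIs.

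**Figure D4:**
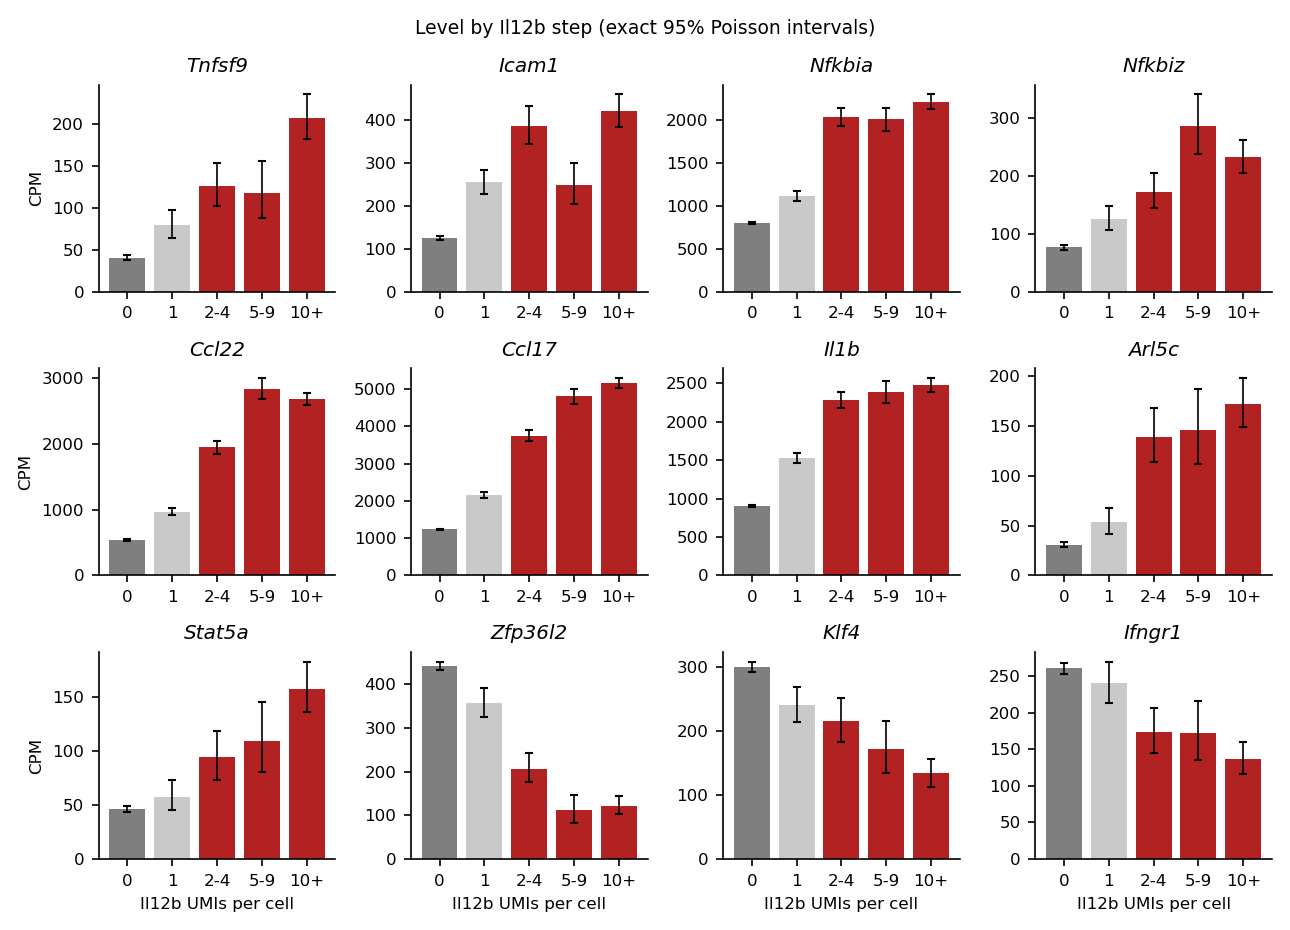
Level of 12 genes (y axis, CPM of summed UMIs, bars with exact 95% Poisson intervals) in kept cells with 0, 1, 2 to 4, 5 to 9 and 10 or more Il12b UMIs (x axis; 1557, 94, 60, 31 and 84 cells). The positive cells are in red; Nfkbia stands at 801 CPM in zero cells and 2032 at 2 to 4 UMIs, and Klf4 at 300 and 215.

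Seen from the other side, the share of Il12b-positive cells differed with the level of other genes. Among thinned kept cells, 1.74% of 805 with no Ccl22 UMI were Il12b-positive (0.954 to 2.90), and 36.0% of 253 with 10 or more (30.1 to 42.2), with median depths before thinning of 12705 and 12275 UMIs. For Ccl17 the share went from 1.77% at 0 to 32.8% at 20 or more UMIs, and for Il1b from 2.04% to 28.8%. For Cd207, the lectin of airway-associated cDC1, it was 9.66% at 0 and 9.92% at 10 or more. Even among cells rich in Ccl22 or Ccl17 most were not Il12b-positive. The 5 genes whose thinned counts were most like those of Il12b, among 2008 genes over 1791 cells of this 1 library, were Ccl22 (Spearman rho 0.35), Ccl17 (0.30), Bcl2a1a (0.29), Bcl2a1d (0.29) and Il1b (0.28), as a description of cells that share library and depth.

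Set beside the more mature cDC1 cells of the library, the positive cells had their own order of levels. In 144 Ccr7-positive, Fscn1-low cells and 40 Fscn1-high cells, Tnfsf9 was at 38.6 and 64.3 CPM, against 165 in the positive cells (ratios 4.26, 3.34 to 5.48, and 2.56, 1.82 to 3.69). Nfkbiz was at 82.1 and 69.5 CPM against 222, Icam1 at 125 and 245 against 378, and Nfkbia at 1075 and 1239 against 2114. Il1b was at 1384 and 900 CPM against 2396. These genes were chosen after their values were seen, and not all genes of their kinds were ordered alike: Tnip1 was at 71.6 and 90.4 CPM against 64.3. Tnip3, at 498 and 301 CPM against 590, was highest in the positive cells too. Its ratio over Ccr7-positive cells was small (1.18, 1.09 to 1.28). Of the 15 genes of largest ratio over zero cells, 3 were at least 1.5-fold higher and 1 lower in positive than in Ccr7-positive cells, with a median ratio of 1.04. Against Fscn1-high cells, 6 of the 15 were higher and 7 lower. Both comparisons used the same positive cells. These were chosen on Il12b, and the more mature sets were not. Of the latter, 53 of 144 Ccr7-positive and 34 of 40 Fscn1-high cells had at least 2 Il12b UMIs. Differences that go with Il12b and with the maturation genes therefore cannot be told apart here.

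Several maturation genes had the opposite order. Ccl22 was 2.47-fold lower in positive than in Fscn1-high cells (2.37 to 2.58), at 2473 against 6112 CPM, and Tmem123 10.8-fold lower, at 140 against 1508. Cacnb3 had 4 UMIs in all positive cells (1.71 CPM) and 483 CPM in Fscn1-high cells. H2-M2 had none and was at least 193-fold lower, taking 3 UMIs as the floor, than its 249 CPM there. Cd40 (46.3, 51.5 and 99.1 CPM), Arl5c (157, 195 and 346) and Traf1 (466, 507 and 905) were near the Ccr7-positive level and below the Fscn1-high level. Over 4239 genes, 914 (21.6%) were at least 1.5-fold higher and 1109 (26.2%) lower in positive than in Fscn1-high cells, and over 4057 genes, 301 (7.42%) and 319 (7.86%) in positive than in Ccr7-positive cells.

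Positive cells without and with traces of the maturation genes were set side by side, with only 20 cells in the latter. In the 155 positive cells with Ccr7 and Fscn1 both at 0, Tnfsf9 was at 164 CPM, Nfkbia at 2116 and Ccl22 at 2427, and in the other 20 positive cells at 170, 2098 and 2818. Ccl17 was at 4552 and 5310 CPM, Cd40 at 43.3 and 68.7, and Ccnd2 at 641 and 445 CPM in these cells, in the same order. The Cd40 intervals overlapped (34.8 to 53.3 and 41.4 to 107), with 19 UMIs in the 20 cells. Those of Ccl22, Ccl17 and Ccnd2 did not overlap, although such intervals cover counting error only.

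**Figure D5:**
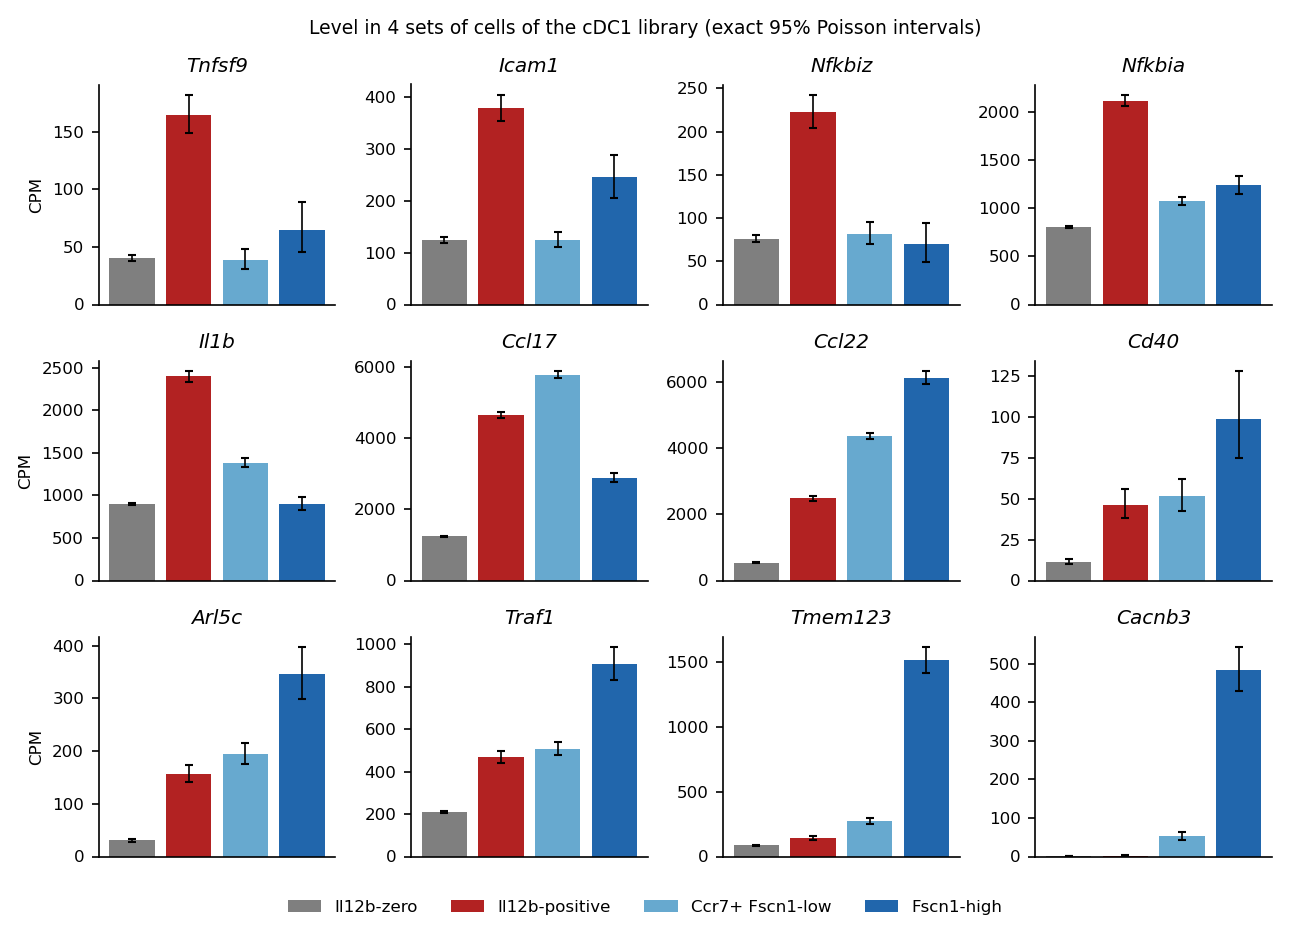
Level of 12 genes (y axis, CPM, bars with exact 95% Poisson intervals) in Il12b-zero immature, Il12b-positive immature, Ccr7-positive Fscn1-low and Fscn1-high cells of the cDC1 library (1557, 175, 144 and 40 cells). Tnfsf9, Icam1, Nfkbiz, Nfkbia and Il1b are highest in the positive cells (red), while Ccl22, Cd40, Arl5c, Traf1, Tmem123 and Cacnb3 are highest in Fscn1-high cells (dark blue). The immature sets were chosen on Il12b and the more mature sets were not.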

How the data were processed

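The authors deposited 1 matrix of raw UMI counts per gene and barcode for each library. Per the submitters' processing notes these came from Cell Ranger 3.2 on mm10 with Seurat named without a role, while the file headers carry software version 3.0.2; no source used here gives the annotation release or how barcodes were selected. Of 31053 feature IDs, 31011 matched GENCODE vM21 (GRCm38) for coordinates, and 71 features that share a symbol were kept apart. Members, gene lists (24 lists, 574 genes, 570 matched) and markers were chosen with earlier results of these data known.

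Counts were summed over the cells of a set and scaled to CPM, with exact Poisson intervals; ratios have exact conditional binomial intervals and shares Clopper-Pearson intervals, all at 95%. Genes with a mean of 20 CPM were measured and called at 1.5-fold, without a test, since there was 1 library. The 11 genes used by the rule were left out. A count of 0 was set to 3 counts for a bound. For shares of cells, each cell was thinned to 5000 UMIs. No doublet caller was run; leaving out the 5% of cells with most UMIs was an alternative. The kit counts transcript ends, so levels are compared within a gene. Positive cells held 2332700 UMIs in sum and zero cells 19735087. The summing and intervals were tested on simulated data. Python 3.11.15, numpy 2.4.6, scipy 1.17.1, pandas 2.3.3 and matplotlib 3.10.9 were used.

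Genes were named by rule: the markers, the 15 largest and 15 smallest ratios at 50 CPM or more, up to 4 per list past 1.5-fold, the 2 highest per list and the 5 most like Il12b. Predicted, mitochondrial, ribosomal, histone and antigen receptor genes were left out. Other genes in the text are list members, or leaders of the other comparisons, chosen after their values were seen.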

Additional observations from a re-analysis of the deposited data

Results flagged for a closer look

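Barcodes of the cDC1 library that passed the quality limits but had no UMI of Xcr1 or Clec9a entered no comparison, and they drew attention because Il12b was present in them. Of these 202 barcodes, 40 (19.8%, exact interval 14.5 to 26.0) had at least 2 Il12b UMIs, against 1.38% of all 2835 barcodes of the cDC2 library passing the limits. The 202 barcodes had no limit on maturation genes, and Fscn1-high cells had at least 2 Il12b UMIs in 36.9% of 65 in the cDC2 library and 85.0% of 40 in the cDC1 library. Among the 40, 37 had a Ccr7 UMI, 27 an Fscn1 UMI, 34 an Irf8 UMI and 11 a Sirpa UMI. Ccl22 stood at 8428 CPM in them and at 2262 CPM in the 149 such barcodes with no Il12b UMI.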

How the results depend on the processing

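The share of positive cells, 9.58%, was 14.7% with a cut at 1 Il12b UMI, 6.30% at 5 and 6.98% after thinning, and stayed within its interval under the other 6 settings, from 9.26% to 10.9%. The numbers of genes at 1.5-fold, 195 higher and 135 lower, rested on the filter for low levels: 360 and 723 at 5 CPM, 1679 and 2013 without a filter, 119 and 35 at 50 CPM, and 72 and 17 at 2-fold. With a cut at 1 Il12b UMI, 34 genes were lower, and with the cut made after thinning, which leaves 125 positive cells, 333. Scaling to the median ratio gave 220 higher and 103 lower.

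Of 52 named genes that were higher, 43 kept the call under all 12 alternatives, and of 22 that were lower, 11 did. None of these calls changed direction under those alternatives. Among 24 further called list genes, Egr1 did, from a ratio of 0.660 to 1.004 with a cut at 1 Il12b UMI. The others kept their direction, and 12 of the 24 lost the call under 1 or more alternatives. Ratios ranged from 3.34 to 4.52 for Tnfsf9, 2.54 to 3.13 for Icam1 and 2.21 to 2.74 for Nfkbia. Of the named genes, Nfkb2, Cd180, Il10ra and H2-Q7 lost the call under 3 or more alternatives. The alternatives of a cycling limit without Mki67 and leaving out barcodes found in both libraries were chosen after seeing the data. No paired analysis was possible because there was 1 library per sort and both sets of cells came from the same one. Of the 22 named lower genes, 11 lost the call, each of them at least with a cut at 1 Il12b UMI.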

Other observations

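Mki67, a proliferation marker on which the rule set a limit, was detected more often in positive than in zero cells, which was noticed after the values were seen. Of the positive cells, 105 of 175 (60%) had an Mki67 UMI, against 283 of 1557 zero cells (18.2%), at 66.4 and 20.2 CPM. Top2a was detected in 9.14% and 10.3% of them, Cdk1 in 8.57% and 9.76%, Ube2c in 4.0% and 4.95%, Birc5 in 5.14% and 3.4%, and Ccna2 in 0 positive and 9 zero cells. Among cells with the other 5 cycling genes at 0 and no limit on Mki67, 97 of 150 positive cells (64.7%, exact interval 56.5 to 72.3) and 239 of 1185 zero cells (20.2%, 17.9 to 22.6) had an Mki67 UMI, at median depths of 12662 and 12301 UMIs. Among these cells the share by Il12b step was 20.2% at 0, 31.1% at 1, 59.2% at 2 to 4, 53.6% at 5 to 9 and 72.6% at 10 or more.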
